A study of Mus musculus with 2 samples.

Results

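The data described here are the signals of miR-103 and miR-107 in microvesicles shed by 3T3-L1 adipocytes. They were taken as every non-control spot that the array names mmu-miR-103 or mmu-miR-107. This gave 2 miRNAs of the 567 mouse miRNAs on the array, with 4 of the 1672 probes and 40 of the 11340 mouse miRNA spots on each array. 3T3-L1 cells are mouse preadipocytes that fill with fat after hormonal induction in culture. Per the labels, the cells grew in high-glucose DMEM with fetal calf serum and were induced with insulin, dexamethasone and 3-isobutyl-1-methylxanthine, so the vesicles of both windows come from induced cells and there is no uninduced control. Late vesicles came from medium conditioned from day 8 to day 10, early vesicles from medium conditioned from day 2 to day 4, and each window is 1 array of vesicle RNA labelled with Cy3. With 1 array per window there is no replicate check and no p-value, and each standard error below is that between spots of an array. The number of arrays limits the precision. Culture, vesicle preparation, hybridisation and window cannot be told apart. A change in the number of vesicles and a change in miRNA per vesicle cannot be told apart either in such bulk RNA.

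miRNAs pair through their seed, bases 2 to 8 from the 5′ end, with sites in messenger RNAs and lower the output of those messengers. miR-103 and miR-107 are processed from introns of the pantothenate kinase genes, whose enzymes carry out the rate-controlling step of coenzyme A synthesis, so host gene and miRNA both sit at the junction of lipid and energy metabolism. In mice the pair is known for dampening insulin signalling in liver and fat through caveolin-1, and miR-103 is known to rise as 3T3-L1 cells become adipocytes. miR-103 is also among the miRNAs widely used as a reference for normalizing miRNA measurements.

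The mature sequences are shown because the pair can hardly be told apart by sequence. They were taken from RefSeq on GRCm38.p6, where both array names matched an entry as the 3p arm, and the seed is in capitals.
miR-103: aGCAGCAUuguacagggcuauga
miR-107: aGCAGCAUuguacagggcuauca
Both are 23 bases long and share 22 of them. The single difference is G22C, counted from 1 at the 5′ end with the base of miR-103 first, which is base 2 from the 3′ end. Among the 1679 mature mouse names in the RefSeq table, these 2 names, from 3 loci, were the ones with the seed GCAGCAU.

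The hairpins show the 3 genes that can supply these sequences, with the mature 3p arm in capitals.
Mir103-1: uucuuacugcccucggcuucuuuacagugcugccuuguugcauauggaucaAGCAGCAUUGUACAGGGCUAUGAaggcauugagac
Mir103-2: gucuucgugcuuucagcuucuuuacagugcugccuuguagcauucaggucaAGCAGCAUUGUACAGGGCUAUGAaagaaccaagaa
Mir107: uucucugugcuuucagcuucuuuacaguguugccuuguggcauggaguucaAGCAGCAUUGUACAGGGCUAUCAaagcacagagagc
Mir103-1 lies at chr11:35782396-35782481 on the plus strand of GRCm38.p6, within the Pank3 gene and 12.9 kb from its start. Mir103-2 lies at chr2:131288052-131288137 on the plus strand, within Pank2 and 26.0 kb from its start. Mir107 lies at chr19:34820687-34820773 on the minus strand, within Pank1 and 62.7 kb from its start. Each hairpin has the strand of its host gene. The hairpins of Mir103-1 and Mir103-2 differ at 17 of 86 aligned positions but give the same mature 3p arm. The array signal of miR-103 therefore cannot be divided between the Pank3 and Pank2 loci, whereas the sequence of miR-107 has 1 locus.

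Each miRNA was read by 2 probes of different length. Probe letters are not part of the files used here, but the files give each probe the stretch of genome it covers, though the genome build is not given in the sources used. The miR-103 probes are placed on chromosome 11, A_54_P1341 at 35595954 to 35595971 and A_54_P1342 at 35595955 to 35595971. The miR-107 probes are placed on chromosome 19, A_54_P1420 at 34895190 to 34895209 and A_54_P1421 at 34895190 to 34895208. For each of the 556 mouse miRNAs with several placed probes, the probes began at 1 shared coordinate. The strand of 157 miRNAs could be looked up unambiguously in RefSeq, and the coordinate given first was the 3′ end for all 157. Read that way, the stretch each probe covers is in capitals.
A_54_P1341 on miR-103: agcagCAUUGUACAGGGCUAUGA
A_54_P1342 on miR-103: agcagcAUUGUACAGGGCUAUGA
A_54_P1420 on miR-107: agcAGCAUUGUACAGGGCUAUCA
A_54_P1421 on miR-107: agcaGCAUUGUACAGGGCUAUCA
The covered stretches are 18 and 17 bases for miR-103, and 20 and 19 bases for miR-107. All 4 stretches include the base that differs, and each matches the other miRNA at every base but that 1. How much of each signal comes from the other miRNA was not tested.

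miR-103 gave a higher signal in late vesicles on both of its probes. Processed intensity here is the spot signal after background subtraction on a linear scale, before any scaling between the arrays. On A_54_P1341 the 10 spots ran from 358 through a median of 405 to 430 in day 8-10 vesicles, against 119 through 135 to 154 in day 2-4 vesicles. On A_54_P1342 they ran from 89.5 through 96.5 to 101 in day 8-10 vesicles, against 27.9 through 31.3 to 33.6 in day 2-4 vesicles. The dimmest late spot was 2.33-fold (A_54_P1341) and 2.66-fold (A_54_P1342) above the brightest early spot of the same probe. The spread among spots, as a coefficient of variation, was 5.94% and 4.03% at day 8-10, and 9.09% and 6.14% at day 2-4.

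miR-107 was higher in late vesicles too, also on both probes. On A_54_P1420 the spots ran from 306 through 313 to 324 in day 8-10 vesicles, against 120 through 130 to 133 in day 2-4 vesicles. On A_54_P1421 they ran from 72.5 through 75.7 to 79.5 in day 8-10 vesicles, against 29.1 through 31.1 to 34.1 in day 2-4 vesicles. On these probes the dimmest late spot was 2.29-fold and 2.13-fold above the brightest early one. How many other probes on the arrays had no overlap between the windows was not counted, so the gaps do not set these probes apart. The software marked 1 late spot of A_54_P1420, the brightest at 324, as an outlier, and it was left out of the averages. All 40 spots were well above background on each array, and no spot was saturated. The local background around these spots had medians of 43.0 to 44.0 in the late array and 42.0 to 43.8 in the early one.

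**Figure D1:**
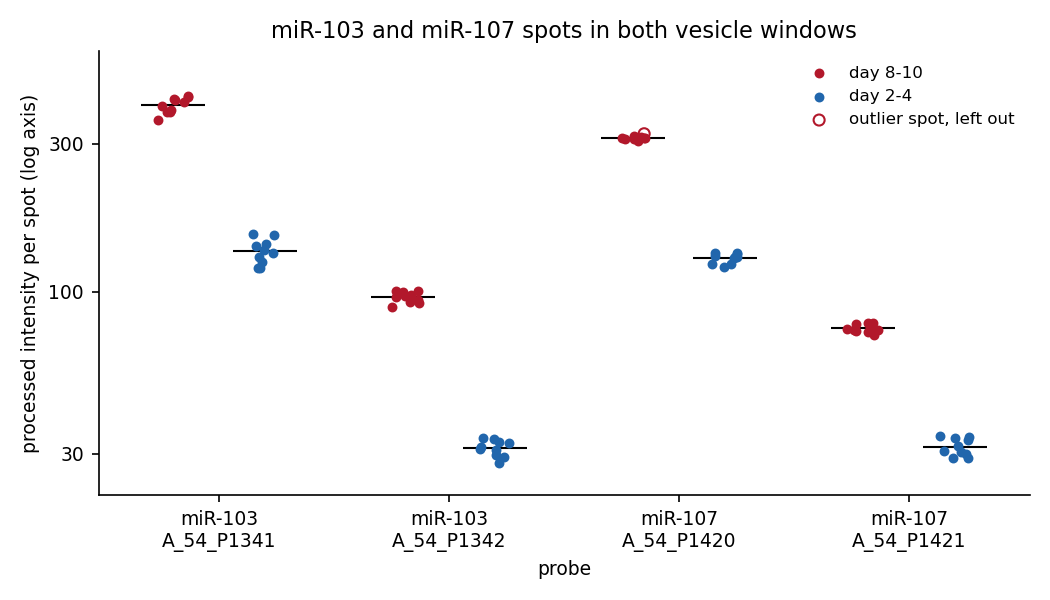
Processed intensity of each spot (log axis) for both probes of miR-103 and of miR-107, in day 8-10 (red) and day 2-4 (blue) vesicles; black lines are means over the spots kept, and the open circle is the outlier spot left out. For each probe all day 8-10 spots lie above all day 2-4 spots, by at least 2.13-fold. How many other probes separate in this way was not counted.

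Averaged over kept spots and left unscaled, miR-103 was 2.96-fold and 3.07-fold higher in late vesicles on its long and its short probe, and miR-107 was 2.44-fold and 2.41-fold higher. For the comparison with other miRNAs each array was divided by the 75th percentile of its probe signals, 95.2 at day 8-10 and 108 at day 2-4 in intensity units, taken over the 279 probes that both arrays detected. A probe counted as detected where more than 0.5 of its spots were well above background. On this scaled log2 basis miR-103 was 3.44-fold higher in late vesicles (log2 difference 1.78, spot SE 0.030) and miR-107 was 2.76-fold higher (log2 difference 1.47, spot SE 0.018). Because every spot sits at the same place on both arrays, spots can also be set against their own counterpart. The per-spot log2 differences of miR-103 lay between 1.60 and 1.93, and those of miR-107 between 1.31 and 1.59. All of these spot pairs, 10, 10, 9 and 10 over the probes, were at least 2-fold higher at day 8-10. Spots of 1 array share the same RNA and are not replicates, and the share of other probes with such pairs was not counted.

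The probes of each miRNA gave nearly the same change although their brightness differed. The log2 differences of the long and short miR-103 probes were 1.76 and 1.81, and those of the miR-107 probes were 1.47 and 1.46. The gap between probes was 0.049 for miR-103 and 0.014 for miR-107. Over the 82 miRNAs with exactly 2 probes detected on both arrays, the median gap was 0.079 and the widest was 1.12, with 10 miRNAs closer than miR-107 and 29 closer than miR-103.

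The change of miR-107 was the smaller one. miR-107 minus miR-103 came to -0.31 on the log2 scale (spot SE 0.035), so the late-over-early ratio of miR-103 was 1.24 times that of miR-107. Each of the 4 pairings of a miR-107 probe with a miR-103 probe gave the same sign, with values between -0.35 and -0.28. The gap exceeds the spread between spots, but it is under 2-fold and no second pair of arrays is at hand to measure its spread between preparations. Close relatives elsewhere on the array, chosen after their values were seen, lay both nearer together and further apart. miR-23a and miR-23b differed by 0.086 in their log2 differences, miR-20a and miR-20b by 0.16, and miR-27a and miR-27b by 0.59. miR-26a and miR-26b differed by 1.04, miR-193 and miR-193b by 1.11, miR-148a and miR-148b by 1.07, miR-15a and miR-15b by 1.57, and the 5 listed miR-30 members spanned 1.19.

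Both arrays detected 145 miRNAs. A 2-fold gain at day 8-10 that also exceeded 2 spot standard errors was found for 23 of these, which is 15.9%, and both miR-103 and miR-107 were among them, while 11 (7.59%) were lower by the same rule and 111 (76.6%) were neither. Ordered by log2 difference, miR-103 was at place 9 and miR-107 at place 11 in the main setting. Over the 14 other processing settings, which ranked 130 to 170 miRNAs, the places ran from 4 to 13 for miR-103 and from 7 to 15 for miR-107. The median of all 145 was 0.20, with quartiles of -0.22 and 0.73, so miR-103 stood 1.58 and miR-107 1.26 above the median on the log2 scale. miR-107 fell below 2-fold in 2 of the 14 other processing settings. With the 75th percentile taken over all mouse probes its log2 difference was 0.96 and that of miR-103 1.27, while the median of all miRNAs moved to -0.30 and the counts over all miRNAs to 10 higher and 29 lower. With normexp, a background correction used here with an added offset of 50, which pulls dim signals together, miR-107 had 0.91 and miR-103 1.15. The median of all miRNAs was then 0.12, with counts of 5 higher and 5 lower. Their distance above the median of all miRNAs stayed between 1.03 and 1.78 for miR-103, and between 0.79 and 1.40 for miR-107, over those 14 settings. Settings that only rescale a whole array cannot change this distance.

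**Figure D2:**
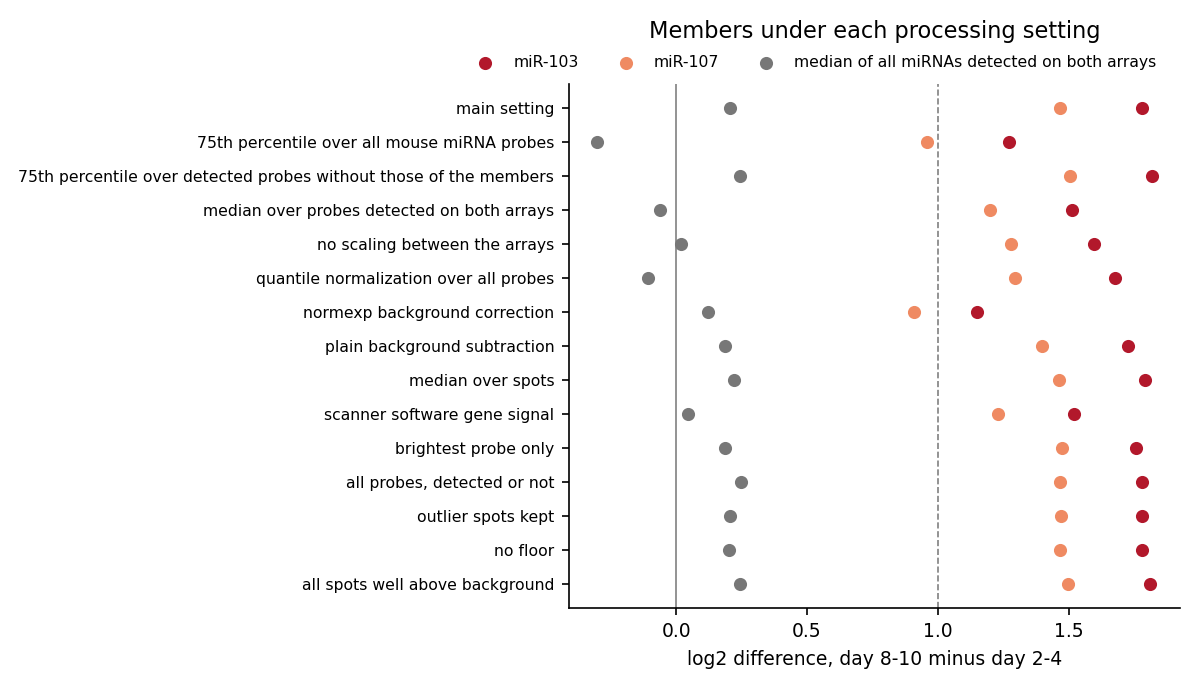
Log2 difference (day 8-10 minus day 2-4) of miR-103, miR-107 and the median of all miRNAs detected on both arrays, under the main setting and 14 other processing settings, 1 row each; the dashed line marks 2-fold. miR-103 lies above miR-107 in each row and past 2-fold throughout, while miR-107 is under 2-fold in 2 rows, at 0.96 and 0.91.

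The miRNAs whose change was most like that of each were named by the smallest distance between log2 differences over the 2 arrays. For miR-103 these were miR-29c (1.87), miR-718 (1.67), miR-148a (1.90), miR-494 (2.01) and miR-706 (2.03). For miR-107 they were miR-365 (1.44), miR-210 (1.41), miR-378 (1.34), miR-671-5p (1.30) and miR-721 (1.28). The distance was within 2 combined spot standard errors for miR-29c and miR-718 from miR-103, and for miR-365 and miR-210 from miR-107. All 10 values were lower with normexp, where miR-103 itself had 1.15 and miR-107 had 0.91. With normexp 8 of the 10 neighbours were within 2-fold: of those near miR-103, miR-718 was at 0.34, miR-706 at 0.58 and miR-29c at 0.65, and all 5 near miR-107 lay between 0.53 (miR-210) and 0.78 (miR-365). miR-148a had 1.10 and miR-494 1.81.

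Other miRNAs that rise in or promote adipogenesis were compared as a list of 19, without miR-103 and miR-107. Both arrays detected 17 of them. By the 2-fold rule 7 of the 17 were higher at day 8-10 (15.9% of all miRNAs were), 0 were lower (7.59% of all miRNAs were) and 10 lay within 2-fold. The list's median log2 difference was 0.85, beside 0.20 over all miRNAs. That median was between 0.34 and 0.89 over the settings, and its excess over all miRNAs, 0.65 in the main setting, was 0.25 with normexp. Only miR-148a of the 17 exceeded miR-103 or miR-107. miR-365 and miR-193 had 1.44 and 1.08, while miR-193b, a close relative of miR-193, had -0.034. miR-378, from an intron of the mitochondrial regulator gene Ppargc1b, had 1.34, and the hypoxia-induced miR-210 had 1.41. miR-30e (1.09) and miR-30c (1.03) completed the 7. Of those within 2-fold, the higher signals were those of miR-26b (0.99), miR-30a (0.85), miR-143 (0.77) and miR-30b (0.61). Values near 0 belonged to miR-21 (0.16), miR-34a (0.22), miR-146b (-0.15), miR-30d (-0.097), miR-193b (-0.034) and miR-26a (-0.048), and each of these but miR-26a changed sign in at least 1 other setting. Neither miR-335-5p nor miR-204 was detected on either array. The number at least 2-fold higher was between 1 and 8 over the settings, and both with normexp and with the 75th percentile over all mouse probes miR-148a alone of the list passed 2-fold.

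The miRNAs on a chosen list of others from introns of protein-coding genes were called about as often as all miRNAs. Both arrays detected 22 of the 39 listed ones. By the 2-fold rule 3 of the 22 were higher at day 8-10, 1 was lower and 18 were neither, beside 15.9%, 7.59% and 76.6% of all miRNAs. The 3 higher ones became 0 with the 75th percentile over all mouse probes and with normexp. Their median log2 difference was 0.25, close to the 0.20 of all miRNAs, and it lay between -0.26 and 0.33 over the settings. The higher ones were miR-378, miR-30e and miR-30c, and the lower one was miR-1224 (-2.62), from an intron of Vwa5b2. None of the 22 exceeded miR-107.

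The miR-15/16 group carries the same letters as the start of miR-103, moved by 1 base, and it is shown because such miRNAs are often grouped with miR-103 and miR-107. The members detected on both arrays were the following, with the seed in capitals.
miR-15a: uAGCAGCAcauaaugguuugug
miR-15b: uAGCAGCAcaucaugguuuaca
miR-16: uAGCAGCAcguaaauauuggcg
miR-322: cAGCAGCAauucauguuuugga
miR-497: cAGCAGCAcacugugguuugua
Bases 1 to 7 of miR-103 and miR-107, AGCAGCA, are bases 2 to 8 of these miRNAs, so the seeds are offset and not equal. This group is known for holding back the cell cycle, and its members differed among themselves. Their log2 differences were 0.99 for miR-15a, 0.96 for miR-497, 0.20 for miR-16, -0.58 for miR-15b and -1.17 for miR-322. By the 2-fold rule 0 of the 5 were higher and 1, miR-322, was lower, beside 15.9% and 7.59% of all miRNAs, and with normexp miR-322 was within 2-fold at -0.87. miR-15a passed 2-fold in 3 other settings, miR-497 in 2 and miR-15b in 1, at -1.09 with the 75th percentile over all mouse probes, and the sign of miR-16 turned in 3. By the rule on spots well above background, miR-195 was detected at day 8-10 alone and miR-503 at day 2-4 alone. By the scanner software's own detection call, all 7 listed members of this group were detected on both arrays.

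Markers of other sources were read beside these values, because fetal calf serum carries miRNAs and miR-103 and miR-107 have the same sequence across mammals. Of the 7 blood-cell and serum miRNAs, 3 were detected on both arrays and none differed by 2-fold, as was so for 76.6% of all miRNAs. miR-451, of red cells, had a log2 difference of 0.043, miR-486 had 0.046 and the myeloid miR-223 had -0.22, each with a sign that turned in other settings. The summed scaled signal of these 3 was 7.20 at day 8-10 and 7.01 at day 2-4. miR-144 was detected at day 8-10 alone, and miR-142-3p, miR-142-5p and miR-150 on neither array. Of the 6 epithelial miRNAs miR-205 alone was detected, at day 8-10, and none was detected of the 4 muscle miRNAs, the 2 endothelial miRNAs and the liver miRNA miR-122. By the scanner software's own call, 1 of the muscle miRNAs was detected on both arrays. Of the 4 neural miRNAs only miR-128 was seen, at -0.33 in the main setting and 0.030 under normexp.

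Mesenchymal and fibroblast miRNAs ran the other way in part. Of the 5 on the array 4 were detected, and miR-214 (-1.63) and miR-199a-5p (-1.40) were at least 2-fold lower at day 8-10, beside 7.59% of all miRNAs. With normexp miR-199a-5p was within 2-fold at -0.67 and miR-214 had -1.01. miR-199b had -0.95 and miR-143, which is also on the adipogenesis list, had 0.77. miR-145 was not detected by the spot rule, but by the scanner software's own call all 5 were detected on both arrays. The summed scaled signal of the 4 was 3.77 at day 8-10 and 8.09 at day 2-4. The part of these sources in the miR-103 and miR-107 signals was not tested.

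**Figure D3:**
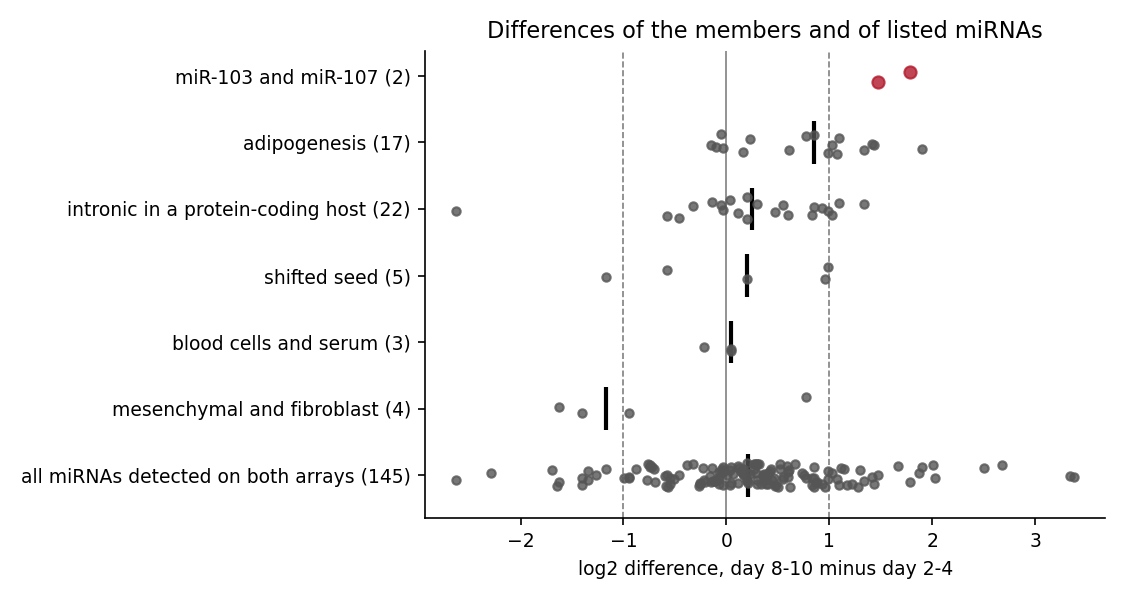
Log2 difference (day 8-10 minus day 2-4) of miR-103 and miR-107, of miRNAs in 5 lists and of all 145 miRNAs detected on both arrays, with 1 point per miRNA, list medians as black bars and 2-fold as dashed lines; points are spread vertically for legibility. miR-103 (1.78) and miR-107 (1.47) lie to the right of each list median, of which adipogenesis is the highest at 0.85.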

How the data were processed

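Per the file headers, the authors' deposited intensity values were made with Agilent Feature Extraction 9.5.3.1, which subtracts a fitted background surface; nothing in the headers normalizes between arrays. The value table of the series equalled this processed intensity at 24986 of 24986 spots (relative tolerance 1e-06), with medians of 0.646 at day 8-10 and 0.516 at day 2-4, so it is linear and not centred. Deposited 0 or 1 flags, kept with the other values per the file headers, mark spots well above background, saturated or outlying. Control and outlier spots were left out. Spots were scaled, raised where needed to a floor, the mean of the dimmest detected probe (5.55 at day 8-10 and 4.86 at day 2-4 in intensity units), log2 transformed and averaged per probe. Probes detected in either window were then averaged per miRNA. In the late array 166 and in the early array 156 mouse miRNAs were detected. Named miRNAs are the 4 probes' miRNAs, the 5 nearest to each by log2 difference, all detected adipogenesis and shifted-seed members, and up to 4 of every other list. The members and lists were chosen with earlier results of these data known. The calculation used Python 3.11.15, and limma 3.58.1 for normexp with an offset of 50. The main setting alone was tested on simulated data, made from the early array with set changes and spot noise. That test did not cover normexp or differences between arrays or preparations. Sequences and gene positions are from RefSeq, GRCm38.p6.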

Additional observations from a re-analysis of the deposited data

How the results depend on the processing

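The 14 alternatives covered scaling, background correction, spot and probe summaries, outlier spots, the floor and the detection rule. The log2 difference of miR-103 kept its direction and stayed past 2-fold in all 14, between 1.15 and 1.82. That of miR-107 stayed past 2-fold in 12, between 1.20 and 1.50. It fell to 0.96 with the 75th percentile over all mouse probes and to 0.91 with normexp. The first is a common shift of all miRNAs by -0.51 relative to the main scaling. Normexp was used with an added offset of 50 in intensity units. The day 2-4 means of the short probes were 31.2 for miR-103 and 31.5 for miR-107. With plain background subtraction miR-107 had 1.40 and miR-103 1.73. Normexp without the offset was not run, so the part of the offset in the lower values was not tested. miR-107 minus miR-103 lay between -0.38 and -0.24 in all 14, but settings that only rescale a whole array cannot change this difference. The count of miRNAs at least 2-fold higher was 23, and it was 10 with the 75th percentile over all mouse probes and 5 with normexp, and between 16 and 27 otherwise. Spots were paired by their place, but no pairing of replicate preparations was possible because each window has 1 array.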
